A study of Mus musculus with 18 samples.

Results

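The secreted Wnt ligands, their Frizzled receptors and the secreted antagonists of the Sfrp and Dkk families were followed through differentiation of mouse muscle cells and depletion of Setd2. Members were the protein-coding genes whose symbol begins Wnt, Fzd, Sfrp or Dkk followed by a digit. There were 37 of them among 47311 genes: 19 Wnt, 10 Fzd, 4 Sfrp and 4 Dkk genes. The rule uses names alone and no measured value.

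Wnt proteins are lipid-modified ligands. They bind Frizzled receptors, and together with the coreceptors Lrp5 and Lrp6 they stabilise beta-catenin, which acts with TCF and LEF factors on transcription; other branches act on cell polarity and calcium. Sfrp proteins carry a Frizzled-like domain and bind Wnts outside the cell, whereas Dkk proteins act on Lrp5 and Lrp6, Dkk3 being the divergent member for which such binding is not established. In skeletal muscle, Wnt signalling is known for its part in the early myogenic programme, in the differentiation and fusion of myoblasts and, through Wnt7a and Fzd7, in the expansion of satellite stem cells.

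RNA came from C2C12 cells, a single established mouse line that grows as mononuclear myoblasts and differentiates into multinucleate myotubes. In each stage the cells received a control siRNA (si-Ctrl) or 1 of 2 siRNAs against Setd2 (si-Setd2#1 and si-Setd2#2, called siRNA 1 and siRNA 2 here), with 3 libraries per group and 18 in all. Setd2 encodes the enzyme that places trimethylation on lysine 36 of histone H3. In every group, controls included, polyA RNA was taken straight after the cultures had been stretched.

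Depth ran from 43.5 to 66.6 M estimated counts per library. Levels of 1 gene are given as CPM scaled by TMM over all libraries, and levels between genes as TPM, which corrects for transcript length. Setd2 stood at 108.2 ± 10.3 CPM in control myoblasts (SD, n = 3), 39.2 ± 4.11 with siRNA 1 and 42.8 ± 3.03 with siRNA 2, and at 105.6 ± 3.55, 45.6 ± 11.5 and 36.4 ± 2.25 CPM in myotubes, with no overlap between control and depleted libraries. All 5 myoblast markers and all 6 myotube markers were detected in both stages, and the summed myotube markers went from 31.4 to 92.4 CPM in control myoblasts to 13080 to 14290 CPM in control myotubes. The summed myoblast markers were higher in control myotubes too, at 3858 to 4196 CPM against 1154 to 1343 CPM in control myoblasts. Of these 5, 3 rose and 2 fell on differentiation, so their sum does not mark the myoblast stage. Adipocyte markers summed to at most 0.13 CPM in any library. The share of counts on 2 ribosomal RNA genes was 1.2% to 1.36% for the myoblast controls, 3.56% to 3.91% for siRNA 1 and 1.46% to 4.1% for siRNA 2, and 1.27% to 2.3%, 1.5% to 2.88% and 2.26% to 2.99% in myotubes. The library names of a stage carry 1 of 2 prefixes whose meaning is unstated (C14 or D2 for myoblasts, C13 or D1 for myotubes), with both in every group. In the myoblast table, siRNA 2 replicate 3 has SETD3 in its column name where its label has SETD2, and the name of the third myotube control differs from those of the other controls in its NT number.

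Of the 19 Wnt genes 10 were expressed highly enough to be tested in this line and 9 were not. A gene was tested where its counts passed a minimum set for the libraries at hand, and 24 of the 37 members passed over all libraries and in myoblasts, and 23 in myotubes, where Wnt5a dropped out. The other 13 never exceeded 10 counts or 0.184 CPM in a library. They were Wnt1, Wnt2, Wnt3, Wnt3a, Wnt7a, Wnt8a, Wnt8b, Wnt9b, Wnt16, Fzd10, Sfrp5, Dkk1 and Dkk4, so Wnt7a, the ligand tied to satellite cells, had 4 counts over the 18 libraries. Wnt2 had none in any. Among the Frizzled genes, 9 of 10 were tested. Members that pass such a minimum through 1 group only had to differ between groups, so the counts below describe tested members, not the families.

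Members lie close together in 4 pairs of Wnt genes in mm10, and the pairs differed in which genes were expressed. Wnt6 and Wnt10a, 6.2 kb apart on chromosome 1, were both tested. Of Wnt3a and Wnt9a, 16.2 kb apart on chromosome 11, only Wnt9a was tested, with 19502 counts over the 18 libraries against 1 for Wnt3a. Of Wnt10b and Wnt1, 11.7 kb apart on chromosome 15, Wnt10b had 8056 counts and Wnt1 had 33. Wnt9b and Wnt3, 24.3 kb apart on chromosome 11, had 4 and 23 counts and were not tested. Exons of Fzd5, Fzd6, Sfrp2, Wnt11, Wnt5a and Wnt7b overlap a gene on the opposite strand, but none of those genes had more than 206 counts over the 18 libraries. The sources used here do not say whether the libraries keep strand.

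The receptors outweighed the ligands and antagonists in control myoblasts. Summed per library, Fzd genes held 121.8 ± 0.65 TPM (SD, n = 3), Wnt genes 23.2 ± 0.26, Dkk genes 15.7 ± 0.62 and Sfrp genes 3.53 ± 0.35. Fzd7 led the receptors at 42.0 ± 1.69 TPM. It was followed by Fzd1 (23.6 ± 0.78) and Fzd6 (23.6 ± 1.36), whose libraries overlapped, then by Fzd2 (19.5 ± 1.51), Fzd5 (5.12 ± 0.45) and Fzd3 (5.11 ± 0.12), the last pair again overlapping. The ligands were ordered Wnt10b (7.12 ± 0.54 TPM), Wnt10a (5.69 ± 0.31), Wnt7b (4.63 ± 0.48) and Wnt9a (3.44 ± 0.13), with no overlap between neighbours. Every other Wnt gene stayed below 1 TPM. Dkk2 alone held 98.3% of the Dkk signal.

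In control myotubes the order had changed. Wnt10a stood at 44.9 ± 0.24 TPM and Wnt9a at 22.8 ± 1.75, 54.2% and 27.6% of the ligand total of 82.8 ± 3.04 TPM, ahead of Wnt10b (6.88 ± 0.72). Wnt11 (3.39 ± 1.41 TPM) and Wnt4 (2.07 ± 0.15) followed with overlapping libraries. Without length correction Wnt11 was below Wnt4, at means of 2.28 and 4.49 CPM. By the authors' quantification, 30.4% and 16.2% of the Wnt11 TPM lay on transcripts annotated for nonsense-mediated decay. Another 36.0% lay on a coding transcript of 634 bases, and 9.53% and 6.32% on coding transcripts of 1792 and 3451 bases. The TPM rank of Wnt11 depends on these estimated shares, which carry no test. Among receptors, Fzd2 (50.9 ± 1.94 TPM) and Fzd7 (50.3 ± 2.81) overlapped at the top, above Fzd1 (41.5 ± 2.13) and Fzd6 (15.8 ± 0.94). The receptor sum was 179.6 ± 3.92 TPM. Dkk genes fell back to a sum of 3.13 ± 0.25 TPM, led by Dkk3, and the Sfrp sum was 3.48 ± 0.31 TPM, to which Sfrp2 and Sfrp4, with overlapping libraries, gave 43.8% and 39.4%. These sums carry no test.

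The promoters of 4 members called on differentiation below are shown, with the motifs that were searched. Dkk2, Sfrp2 and Wnt11 were also called with siRNA 2 in myotubes, whereas Wnt9a was called with neither siRNA. Each promoter shown is the 150 bases before the RefSeq start (GRCm38.p6), read 5′ to 3′ on the gene's strand, all 4 genes being on the plus strand. Capitals mark a match on either strand to 1 of 3 motifs, none of which overlap here. The first is the TATA box, TATAAA. The second is an E box of the type that myogenic bHLH factors such as MyoD bind, and its letters are CAGCTG. The third is the TCF/LEF site CTTTGAT. On the other strand that site reads ATCAAAG.
Dkk2, chr3:132085142-132085291: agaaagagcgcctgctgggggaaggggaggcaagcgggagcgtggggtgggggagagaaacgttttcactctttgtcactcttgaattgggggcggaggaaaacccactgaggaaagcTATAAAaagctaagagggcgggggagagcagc
Sfrp2, chr3:83766171-83766320: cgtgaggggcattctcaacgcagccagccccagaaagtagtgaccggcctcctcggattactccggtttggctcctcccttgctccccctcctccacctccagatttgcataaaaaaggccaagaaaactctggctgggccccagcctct
Wnt11, chr7:98834962-98835111: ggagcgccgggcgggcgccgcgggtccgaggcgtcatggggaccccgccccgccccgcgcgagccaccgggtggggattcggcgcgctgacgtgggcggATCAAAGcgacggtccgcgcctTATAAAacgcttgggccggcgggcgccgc
Wnt9a, chr11:59306780-59306929: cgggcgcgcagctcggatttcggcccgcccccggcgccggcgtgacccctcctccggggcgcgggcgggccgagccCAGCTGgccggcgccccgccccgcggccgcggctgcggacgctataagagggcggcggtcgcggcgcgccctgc

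Dkk2 held a TATA box 32 bases before its start, Wnt11 a TATA box 29 bases and a TCF/LEF match 51 bases before, Wnt9a an E box 74 bases before, and Sfrp2 none of the 3 motifs. The table of promoters held 25 of the 37 members with 28 promoters, and Wnt7b, Wnt10a, Dkk3 and Sfrp4 were not among them. A TATA box was found in 3 of the 28, an E box in 1 and a TCF/LEF match in 2. Of 32851 promoters of all genes cut to the same length, 7.57% held TATAAA, 8.39% CAGCTG and 1.8% CTTTGAT. The second Wnt11 promoter in the table held none. Promoters of Wnt4, Fzd1, Fzd7 and Fzd9, also called on differentiation and with siRNA 2 in myotubes, held none either and are not shown. The 4 shown therefore do not stand for the members. A match is a stretch of letters and not a measured binding site.

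Differentiation was read from the control libraries of both stages, myotubes over myoblasts. Most ligands, 8 of 9 receptors, Sfrp2 and Dkk3 were higher in myotubes, and Wnt7b, Dkk2, Sfrp1 and Fzd6 were lower. Wnt5a is also counted among the falls, but it passed the minimum in myoblasts and not in myotubes, so the filter favoured that direction. Of 24 tested members 16 rose and 5 fell at an adjusted p under 0.05 by edgeR's quasi-likelihood test, where 39.4% of the 16930 genes tested rose and 38.1% fell. The members' median log2 fold change was 0.78, against 0.0038 over all genes. By family, 6 Wnt genes rose and 2 fell of 10, 8 Fzd genes rose and 1 fell of 9, and 1 rose and 1 fell of both the 3 Sfrp and the 2 Dkk genes. Stage, table and prefix change together here and cannot be told apart.

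Wnt10a was at 7.21, 7.13 and 6.78 CPM in the control myoblasts and at 55.0, 56.5 and 54.8 CPM in the control myotubes. The replicates lay close together, and the log2 fold change was 2.98 (SE 0.079, adjusted p = 1.92e-17). Its neighbour Wnt6 was at 0.497, 0.495 and 0.424 CPM and then at 0.815, 0.672 and 1.09 CPM, a smaller rise of 0.85 (SE 0.23, adjusted p = 0.00257). By the authors' quantification, 29.1% and 31.5% of the Wnt6 TPM in these groups lay on a transcript annotated as a retained intron. The Wnt6 rise is thus not one of coding RNA alone. Wnt9a, a ligand best known from joint and heart valve development, went from 6.02, 6.11 and 5.67 CPM to 41.4, 35.8 and 39.1 CPM. Its log2 fold change was 2.71 (SE 0.13, adjusted p = 1.2e-11). These ligands thus did not overlap between the stages.

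Wnt11, a ligand of the noncanonical branch that is expressed in early muscle fibre elongation, was low in myoblasts at 0.232, 0.165 and 0.300 CPM and reached 2.33, 1.30 and 3.21 CPM in myotubes. The myotube libraries were spread over more than a doubling, and the log2 fold change of 3.26 carried an SE of 0.34 (adjusted p = 5.78e-08). These Wnt11 counts are summed over all its transcripts, those annotated for nonsense-mediated decay included, so the rise is not one of coding RNA alone. Wnt4, which promotes muscle differentiation in chick and mouse cells, rose from 1.31, 1.28 and 1.45 to 4.31, 4.34 and 4.82 CPM (log2 fold change 1.73). Wnt2b rose from 0.381, 0.532 and 0.530 CPM to 1.51, 1.48 and 1.71 CPM (1.70). Wnt7b ran the other way. It was at 9.13, 7.46 and 8.25 CPM in the myoblasts and at 0.652, 0.870 and 0.777 CPM in the myotubes, a fall of 3.41 on the log2 scale (SE 0.14, adjusted p = 6.54e-15). Wnt5a, the classical noncanonical ligand, was under 0.47 CPM in every control library, and its fall of 1.29 (adjusted p = 0.0141) was lost without the first myoblast control (adjusted p = 0.0654) or the first myotube control (0.0699). Since Wnt5a was tested through its myoblast counts, this fall is not read as support for a change. Wnt10b was at 7.31 to 8.49 CPM in control myoblasts and 6.85 to 8.32 CPM in control myotubes and was not called (log2 fold change -0.07, adjusted p = 0.539), nor was Wnt5b (-0.29, adjusted p = 0.461).

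Among the receptors, Fzd9 showed the largest change. It was at 0.879, 0.899 and 0.530 CPM in control myoblasts and at 4.36, 3.68 and 3.63 CPM in control myotubes (log2 fold change 2.33, SE 0.15, adjusted p = 1.45e-11). Fzd2 rose from 40.3, 37.3 and 34.6 CPM to 94.6, 94.1 and 98.9 CPM (1.36, SE 0.048). Fzd1 rose from 50.3, 52.1 and 53.9 CPM to 85.7, 91.2 and 93.6 CPM (0.79). The control libraries of these genes did not overlap between stages. Fzd8 rose from 0.995, 1.16 and 1.24 CPM to 2.33, 1.77 and 2.22 CPM (0.89), and Fzd4 from 6.45, 5.74 and 5.12 CPM to 10.2, 10 and 9.29 CPM (0.77), also without overlap. Fzd3 (0.47), Fzd5 (0.37) and Fzd7 (0.24) rose less and passed the threshold. Fzd6, a receptor used in planar polarity, was the only Frizzled gene that fell, from 53.0, 47.4 and 51.1 CPM to 35.5, 31.8 and 32.9 CPM (-0.60, SE 0.057, adjusted p = 6.87e-09).

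The antagonists changed in both directions. Dkk2 stood at 28.5, 31.1 and 30.3 CPM in control myoblasts and at 1.54, 1.91 and 2.06 CPM in control myotubes, a fall of 4.01 on the log2 scale (SE 0.15, adjusted p = 1.41e-13). Dkk3 stood at 0.564, 0.440 and 0.318 CPM and then at 3.82, 3.38 and 3.93 CPM, a rise of 3.06 (SE 0.25, adjusted p = 7.41e-10). Sfrp2 rose from 0.497, 0.422 and 0.300 CPM to 1.30, 1.48 and 1.61 CPM (1.85, SE 0.25). Sfrp1 fell from 2.97, 3.15 and 3.13 CPM to 1.37, 1.28 and 1.34 CPM (-1.21, SE 0.13). None of these 4 genes had overlapping control libraries. Sfrp4 overlapped between the stages, at 1.19 to 1.80 CPM and 1.08 to 1.32 CPM, and was not called (-0.40, adjusted p = 0.0882).

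**Figure D1:**
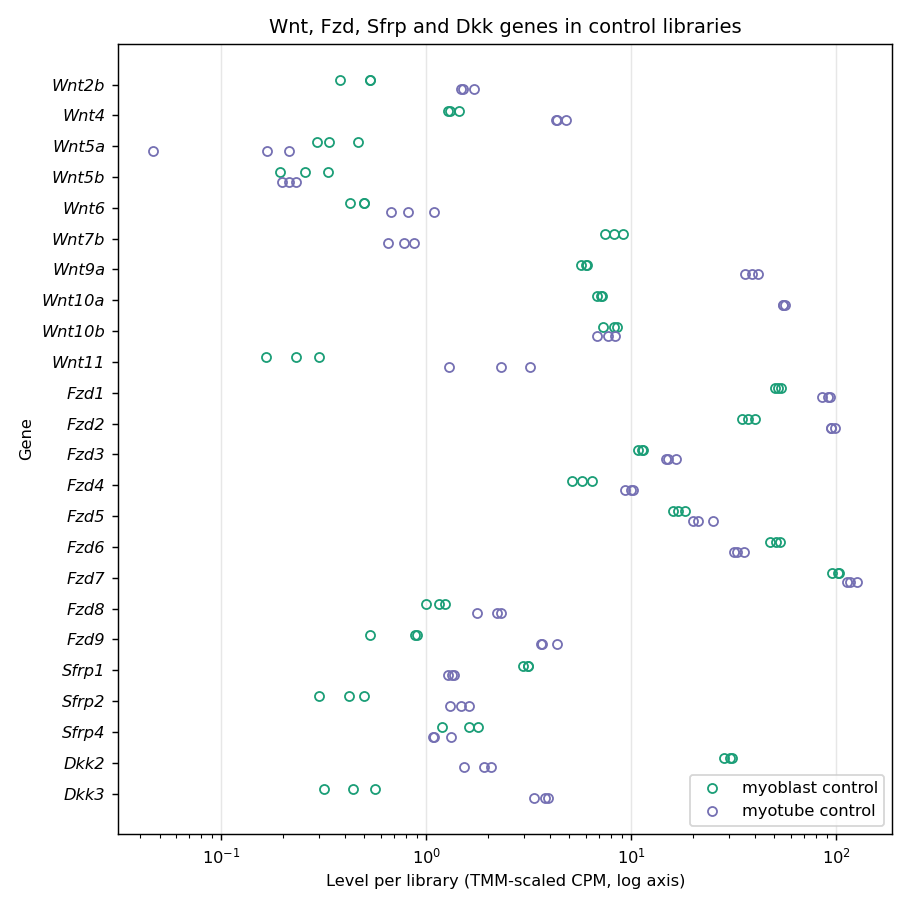
Level of the 24 tested members in the 3 control myoblast and the 3 control myotube libraries, as TMM-scaled CPM on a log axis, 1 circle per library. Wnt7b and Dkk2 lie further left in myotubes, Wnt9a, Wnt10a, Wnt11, Fzd9 and Dkk3 further right, and Wnt10b overlaps.

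In myoblasts each siRNA was compared with the same 3 controls, so the results of both siRNAs share them and are given side by side. Wnt7b, which fell, and Fzd3 and Fzd2, which rose, were called in the same direction with each siRNA. Fzd7 fell with siRNA 1 and rose with siRNA 2. Of 24 tested members 4 rose and 3 fell with siRNA 1, where 11.6% of 15586 genes rose and 8.44% fell. With siRNA 2, 5 rose and 3 fell, where 17.1% rose and 16.5% fell. With same-prefix libraries summed, the siRNA 1 count became 4, Dkk2, Fzd2 and Wnt6 being lost (adjusted p = 0.0925, 0.164 and 0.198), and with siRNA 2 the Wnt10a call was lost (0.2). The members' median log2 fold change was -0.06 with siRNA 1 and 0.10 with siRNA 2, against 0.0055 and 0.0002 over all genes. By limma on the TPM scale the members split into 2 rises and 3 falls with siRNA 1 and 4 and 4 with siRNA 2. All genes then split into 728 and 1907 with siRNA 1 and 1613 and 2766 with siRNA 2.

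Wnt7b was at 9.13, 7.46 and 8.25 CPM in the controls, 4.69, 4.18 and 4.56 CPM with siRNA 1 and 3.54, 3.37 and 4.41 CPM with siRNA 2. All 6 depleted libraries lay below all 3 controls. With siRNA 1 the log2 fold change was -0.88 (SE 0.11, adjusted p = 0.000153). With siRNA 2 it was -1.13 (SE 0.11, adjusted p = 1.04e-05). Within the C14 prefix the values were -1.04 and -1.37, and within D2 -0.78 and -1.01, as log2 ratios of means. No other ligand was called with each siRNA. Wnt10b was at 6.33, 7.02 and 7.60 CPM with siRNA 1 and at 9.88, 11.5 and 11.8 CPM with siRNA 2, against 7.31, 8.49 and 8.21 CPM in controls. It rose with siRNA 2 (0.47, SE 0.091, adjusted p = 0.00169) and was not called with siRNA 1 (-0.19, adjusted p = 0.178). Wnt10a rose with siRNA 2 (0.25, adjusted p = 0.0278) and Wnt6 with siRNA 1 (0.78, adjusted p = 0.0317). The Wnt10a call was lost without any 1 of control replicates 2 and 3 and siRNA 2 replicates 2 and 3 (adjusted p = 0.0684, 0.096, 0.115 and 0.0806). The Wnt6 call was lost without any 1 of the 3 controls (0.0567, 0.0794 and 0.112) or siRNA 1 replicates 1 and 2 (0.0954 and 0.123).

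Among the myoblast receptors, Fzd3, which has roles in axon guidance and planar polarity, was at 10.9, 11.4 and 11.3 CPM in controls, 16.8, 14.95 and 14.1 CPM with siRNA 1 and 19.9, 19.8 and 18.1 CPM with siRNA 2. The 3 groups did not overlap: siRNA 1 gave 0.46 (SE 0.070, adjusted p = 0.000665) on the log2 scale, siRNA 2 gave 0.79 (SE 0.069, adjusted p = 3.52e-06). Fzd2 was at 40.3, 37.3 and 34.6 CPM in controls, 42.9 to 43.2 CPM with siRNA 1 and 43.9 to 45.9 CPM with siRNA 2 (0.21 and 0.26, adjusted p = 0.0113 and 0.00149). Fzd7, the most abundant receptor, split the siRNAs. Its controls were at 95.6, 102.7 and 103.1 CPM, the siRNA 1 libraries at 74.0, 72.3 and 76.4 CPM and the siRNA 2 libraries at 113.8, 121.7 and 118.7 CPM. The groups lay in 3 separate ranges: siRNA 1 gave -0.43 (SE 0.038, adjusted p = 8.36e-06), siRNA 2 gave 0.24 (SE 0.037, adjusted p = 0.000368). Within prefixes these were -0.39 and -0.43 with siRNA 1 and 0.25 and 0.22 with siRNA 2.

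Fzd1 fell with siRNA 1 from 50.3, 52.1 and 53.9 CPM to 37.6, 40.9 and 41.5 CPM (-0.38, SE 0.046, adjusted p = 0.000123). With siRNA 2 it was at 45.9, 47.2 and 49.8 CPM (-0.13, adjusted p = 0.054), also below every control but not past the threshold, which it passed with the prefix in the model (-0.13, adjusted p = 0.00269). Fzd5 fell with siRNA 2 to 12.04, 12.1 and 12.6 CPM from 18.4, 16.96 and 16.1 CPM in controls (-0.48, adjusted p = 6.72e-05), and stood at 16.4, 16.4 and 17.98 CPM with siRNA 1 (-0.02, adjusted p = 0.889). Fzd9 was low in this stage. It stood at 0.456, 0.348 and 0.406 CPM with siRNA 2, below the controls at 0.879, 0.899 and 0.530 CPM (-0.92, SE 0.25, adjusted p = 0.0141), a call lost without the second control (0.0578) or the second siRNA 2 library (0.0519).

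**Figure D2:**
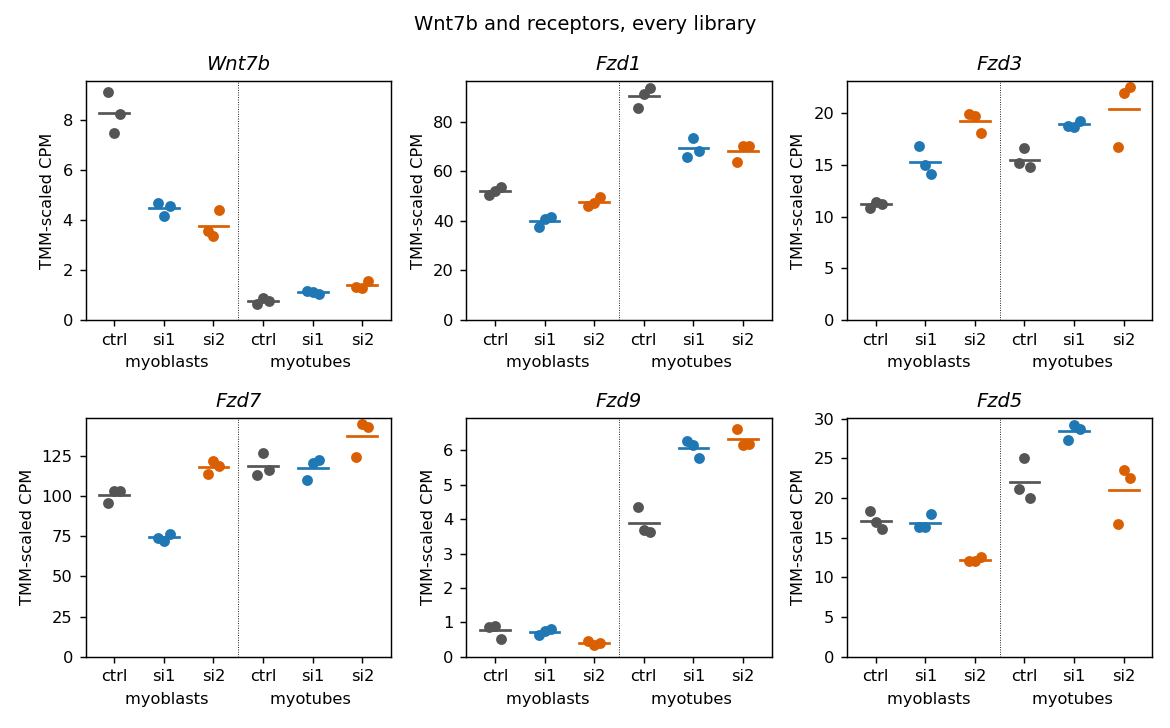
TMM-scaled CPM of Wnt7b and 5 Frizzled genes in every library, on linear axes from 0; ctrl, si1 and si2 are control siRNA, Setd2 siRNA 1 and Setd2 siRNA 2, points are libraries and bars are means of 3. Wnt7b lies below its controls in depleted myoblasts and above them in depleted myotubes, and Fzd7 lies on opposite sides of the myoblast controls with the 2 siRNAs.

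Of the antagonists in myoblasts, Dkk2 was called with siRNA 1 only. It was at 39.9, 39.3 and 39.5 CPM, above the controls at 28.5, 31.1 and 30.3 CPM (0.41, SE 0.087, adjusted p = 0.00892), whereas the siRNA 2 libraries at 23.2, 30.9 and 29.4 CPM overlapped the controls (-0.10, adjusted p = 0.428). No Sfrp gene was called with either siRNA. Sfrp4 was at 0.84 to 1.11 CPM with siRNA 1, 1.19 to 1.80 CPM in controls and 1.51 to 2.26 CPM with siRNA 2, and fell with siRNA 1 where the prefix was in the model (-0.49, adjusted p = 0.0496). Markers of the myoblast list moved as well, 3 of 5 rising with siRNA 1 and 4 of 5 with siRNA 2, with summed levels of 1154 to 1343 CPM in controls, 1517 to 1590 CPM and 1647 to 1755 CPM. The part of these markers, and of the ribosomal RNA share given above, in the members' values was not tested. In bulk RNA, fewer cells expressing a gene and less of its RNA per cell cannot be told apart.

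The fall of Wnt7b was uneven between its transcripts. Wnt7b (ENSMUSG00000022382, chromosome 15, positions 85535437 to 85582473 of mm10, minus strand) has 3 transcripts in the deposited tables. Wnt7b-201 was at 2.06 ± 0.27 TPM in control myoblasts, 0.662 ± 0.094 with siRNA 1 and 0.378 ± 0.029 with siRNA 2. Its libraries ran from 1.78 to 2.33, 0.556 to 0.735 and 0.352 to 0.409 TPM, 3 ranges that did not overlap. Wnt7b-202 was at 2.57 ± 0.20, 1.71 ± 0.21 and 1.60 ± 0.33 TPM. The share of the gene's TPM assigned to Wnt7b-201 went from 44.3% ± 1.40 to 28.1% ± 5.04 and 18.9% ± 3.57. These shares are estimates by the authors' quantification with no test here, and the lengths of both transcripts in the tables (3371 and 3492 bases) differ from those in GENCODE M21 (3365 and 3134), so the sequence that separates them is not shown. Of 21 members with a mean of at least 1 TPM in a group, 11 have 1 transcript in the tables, Dkk2 and Fzd9 among them.

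**Figure D3:**
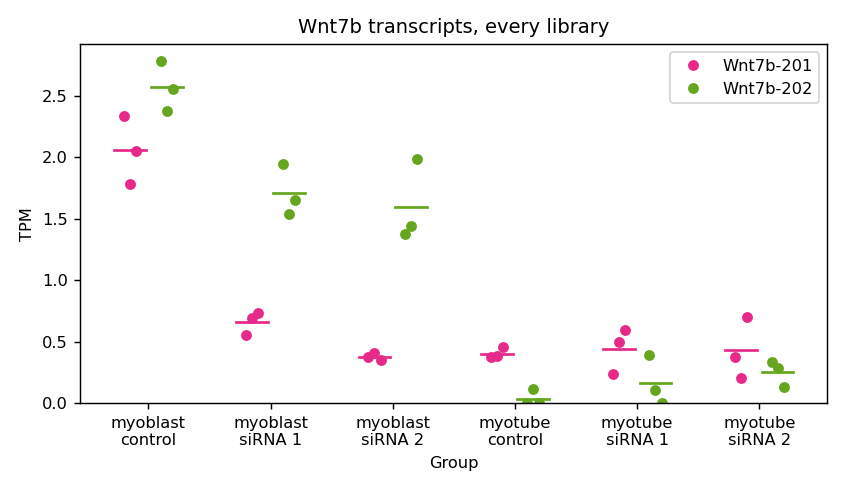
TPM of the transcripts Wnt7b-201 and Wnt7b-202 in every library by group, with points for libraries and bars for means of 3. In myoblasts Wnt7b-201 goes from 1.78 to 2.33 TPM in controls to at most 0.735 TPM in depleted libraries, and in myotubes neither exceeds 0.704 TPM.

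In myotubes the same comparison was made against the myotube controls, again shared by both siRNAs. Fzd9 and Fzd3 rose and Fzd1 fell with each siRNA. With siRNA 2 a further group rose that included the antagonists Sfrp2, Sfrp4 and Dkk2 and the ligands Wnt11, Wnt4 and Wnt7b. Of 23 tested members 3 rose and 3 fell with siRNA 1, where 11.0% of 16097 genes rose and 9.57% fell. With siRNA 2, 9 rose and 2 fell, where 15.8% rose and 16.4% fell. Median log2 fold changes over the members were -0.01 and 0.21, against -0.0009 and -0.0105 over all genes. By limma on the TPM scale the members split into 1 rise and 3 falls with siRNA 1 and 7 rises and 2 falls with siRNA 2. All genes then split into 788 and 1771 with siRNA 1 and 1288 and 3784 with siRNA 2. With same-prefix libraries summed, the siRNA 1 calls of Dkk3, Fzd2, Fzd3 and Sfrp1 were lost (adjusted p = 0.151, 0.116, 0.254 and 0.113), as were the siRNA 2 calls of Fzd3, Fzd6 and Fzd7 (0.129, 0.209 and 0.228). The siRNA 1 count of 6 became 2, 3 and 2 without control replicate 1, control replicate 3 or siRNA 1 replicate 3.

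Fzd9 was at 4.36, 3.68 and 3.63 CPM in control myotubes, 6.29, 6.16 and 5.79 CPM with siRNA 1 and 6.64, 6.16 and 6.20 CPM with siRNA 2. Every depleted library lay above every control: siRNA 1 gave 0.65 (SE 0.094, adjusted p = 0.000577), siRNA 2 gave 0.71 (SE 0.094, adjusted p = 0.000156). Fzd1 was at 85.7, 91.2 and 93.6 CPM in controls, 65.9, 73.6 and 68.1 CPM with siRNA 1 and 63.8, 70.1 and 70.2 CPM with siRNA 2. It fell by 0.38 and 0.41 on the log2 scale (SE 0.049 each, adjusted p = 0.000282 and 7.15e-05), with all depleted libraries below all controls. Within the C13 prefix the Fzd1 values were -0.44 and -0.49 and within D1 -0.36 and -0.38. Those of Fzd9 were 0.66 and 0.73 within C13 and 0.70 and 0.75 within D1.

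Fzd3 was at 15.1, 16.6 and 14.8 CPM in control myotubes, 18.8, 18.7 and 19.3 CPM with siRNA 1 and 16.8, 21.9 and 22.5 CPM with siRNA 2 (0.29 and 0.39, adjusted p = 0.0489 and 0.00772). The highest control and the lowest siRNA 2 library nearly met. The siRNA 1 call was lost without any 1 of its 6 libraries (adjusted p between 0.0622 and 0.167), and both calls were lost with same-prefix libraries summed (0.254 and 0.129). Fzd2 rose with siRNA 1 (0.15, adjusted p = 0.0386), from 94.6, 94.1 and 98.9 CPM to 109.1, 103.4 and 105.1 CPM, and was at -0.05 with siRNA 2. Fzd5 was at 21.1, 25.1 and 19.98 CPM in control myotubes, 27.4, 29.3 and 28.7 CPM with siRNA 1 and 16.8, 23.6 and 22.6 CPM with siRNA 2. Its siRNA 1 libraries lay above the controls without passing the threshold (0.37, adjusted p = 0.0673; 0.29 and 0.00465 with the prefix in the model), and its siRNA 2 libraries overlapped them (-0.08, adjusted p = 0.687). Fzd6 fell with siRNA 2 to 30.7, 27.1 and 29.3 CPM (-0.20, adjusted p = 0.0285) and was at -0.17 with siRNA 1 (adjusted p = 0.0758; 0.0468 with the prefix in the model). Fzd7 rose with siRNA 2 to 124.1, 144.9 and 142.9 CPM from 112.7, 126.8 and 116.3 CPM (0.21, adjusted p = 0.0199), with overlapping groups. The Fzd2 call was lost without any 1 of the controls (0.11, 0.13 and 0.0504) or siRNA 1 replicates 1 and 3 (0.077 and 0.0626). The Fzd6 and Fzd7 calls were lost without any 1 of control replicates 1 and 3 and siRNA 2 replicates 2 and 3 (0.119, 0.0604, 0.154 and 0.0739 for Fzd6; 0.0797, 0.0747, 0.0723 and 0.0676 for Fzd7).

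Among the antagonists, Sfrp2, Sfrp4 and Dkk2, were called in myotubes with siRNA 2 and not with siRNA 1. Sfrp2 (chromosome 3, positions 83766321 to 83774316 of mm10) was at 1.30, 1.48 and 1.61 CPM in controls, 1.28, 2.16 and 1.74 CPM with siRNA 1 and 4.16, 5.93 and 6.55 CPM with siRNA 2. The siRNA 1 libraries overlapped the controls (0.23, adjusted p = 0.504), and the siRNA 2 libraries lay above both (1.91, SE 0.20, adjusted p = 3.66e-05). Dkk2 (chromosome 3, positions 132085292 to 132180304), which had fallen on differentiation, was at 1.54, 1.91 and 2.06 CPM in controls, 1.22, 2.33 and 2.03 CPM with siRNA 1 and 4.29, 5.05 and 4.63 CPM with siRNA 2 (1.33, SE 0.19, adjusted p = 0.000251). These levels stayed below the 28.5 to 31.1 CPM of control myoblasts. Sfrp4 was at 1.10, 1.08 and 1.32 CPM in controls, 0.990, 0.612 and 0.621 CPM with siRNA 1 and 2.46, 2.10 and 1.96 CPM with siRNA 2. It rose with siRNA 2 (0.89, SE 0.19, adjusted p = 0.00393), and its siRNA 1 libraries lay below the controls without passing the threshold (-0.65, adjusted p = 0.0513; -0.55 and 0.0344 with the prefix in the model). The Sfrp sum went from 3.48 ± 0.31 TPM in controls to 3.09 ± 0.57 with siRNA 1 and 8.31 ± 0.68 with siRNA 2.

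Dkk3 and Sfrp1 were called with siRNA 1. Dkk3 was at 3.82, 3.38 and 3.93 CPM in control myotubes, 2.91, 2.39 and 2.41 CPM with siRNA 1 and 3.47, 3.23 and 2.67 CPM with siRNA 2 (-0.52 and -0.25, adjusted p = 0.017 and 0.183). Sfrp1 was at 1.37, 1.28 and 1.34 CPM in controls, 0.874, 1.02 and 0.767 CPM with siRNA 1 and 1.13, 1.08 and 1.19 CPM with siRNA 2 (-0.58 and -0.23, adjusted p = 0.0257 and 0.299). All siRNA 1 libraries of both genes lay below the controls. The Dkk3 call was lost without any 1 of control replicates 1 and 3 and siRNA 1 replicates 2 and 3 (0.0542, 0.0642, 0.0699 and 0.0739). The Sfrp1 call was lost without any 1 of its libraries but siRNA 1 replicate 2 (adjusted p between 0.0523 and 0.109).

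Among the ligands of myotubes, Wnt4 was at 4.31, 4.34 and 4.82 CPM in controls, 5.16, 5.90 and 4.66 CPM with siRNA 1 and 6.53, 8.23 and 8.04 CPM with siRNA 2. It rose with siRNA 2 (0.76, SE 0.11, adjusted p = 0.000291), with no overlap. Wnt11 was at 2.33, 1.30 and 3.21 CPM in controls, 2.31, 2.65 and 2.10 CPM with siRNA 1 and 4.71, 4.49 and 5.96 CPM with siRNA 2 (0.07 and 1.16, SE 0.29 and 0.28, adjusted p = 0.903 and 0.0114). Its controls were spread widely, yet all lay below the siRNA 2 libraries. Of the Wnt11 TPM with siRNA 2, 30.4% and 11.8% lay on the transcripts annotated for nonsense-mediated decay. Within prefixes the siRNA 2 values of Wnt11 were 0.77 in C13 and 2.01 in D1, where the 1 control was the lowest. Wnt7b was at 0.652, 0.870 and 0.777 CPM in controls, 1.15, 1.12 and 1.06 CPM with siRNA 1 and 1.32, 1.29 and 1.54 CPM with siRNA 2. Every depleted library was above every control: siRNA 1 gave 0.52 (SE 0.17, adjusted p = 0.0514), short of the threshold, and siRNA 2 gave 0.84 (SE 0.17, adjusted p = 0.00271). Wnt10a and Wnt9a, the main myotube ligands, were not called with either siRNA (0.17 and -0.05 for Wnt10a, -0.14 and -0.27 for Wnt9a).

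**Figure D4:**
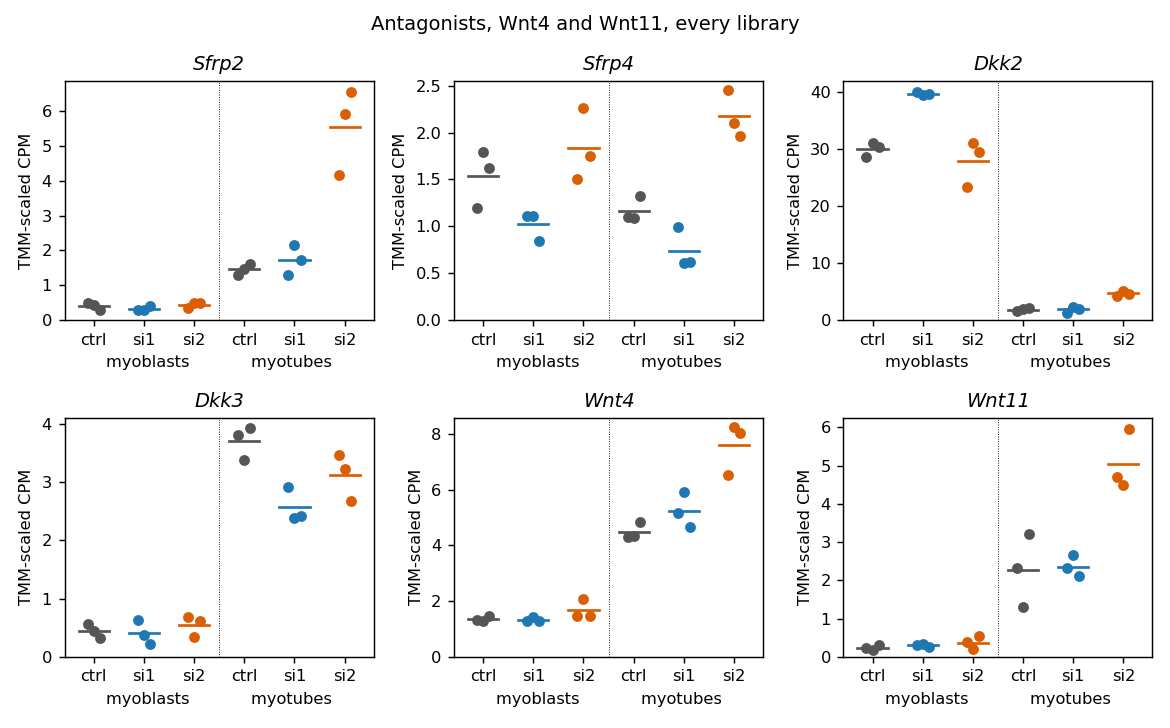
TMM-scaled CPM of Sfrp2, Sfrp4, Dkk2, Dkk3, Wnt4 and Wnt11 in every library, on linear axes from 0; ctrl, si1 and si2 are control siRNA, Setd2 siRNA 1 and Setd2 siRNA 2, points are libraries and bars are means of 3. In myotubes the siRNA 2 libraries of Sfrp2, Sfrp4, Dkk2, Wnt4 and Wnt11 lie above all control and siRNA 1 libraries.

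Markers of other states moved with these groups. Of the 5 endothelial markers, Tek and Cdh5 rose in myotubes with siRNA 2 (log2 fold changes 1.18 and 1.40, adjusted p = 0.000912 and 0.022). The list summed to 2.02 to 2.67 CPM there against 0.952 to 1.16 CPM in controls and 0.893 to 1.54 CPM with siRNA 1. Tie1 was at 0 in all siRNA 2 libraries, and Pecam1 and Kdr stayed at or below 0.124 CPM. Of the 5 myoblast markers, 0 rose and 1 fell in myotubes with siRNA 1, namely Myod1 (-0.23). With siRNA 2, 2 rose and 2 fell: Msc (0.87) and Myf5 (0.28), and Myod1 (-0.23) and Cdh15 (-0.12). Of the 6 myotube markers 2 rose with siRNA 1 and 4 with siRNA 2, and the list summed to 13080 to 14290 CPM in controls, 15610 to 15710 CPM with siRNA 1 and 14560 to 16540 CPM with siRNA 2. Of the 4 tested osteoblast markers, Bglap2 rose (0.68 and 1.25) and Runx2 and Sp7 fell with each siRNA. The part of these markers in the members' values was not tested.

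Since the siRNAs differed in the comparisons above, siRNA 2 was also compared with siRNA 1 directly. In myoblasts 5 of 24 members were higher with siRNA 2 and 3 lower, where 12.1% of genes were higher and 14.3% lower. The largest were Fzd9 (-0.84), Sfrp4 (0.84), Fzd7 (0.67, SE 0.038, adjusted p = 1.58e-07) and Wnt10b (0.66, SE 0.092, adjusted p = 0.00023), with Dkk2 (-0.51), Fzd5 (-0.47), Fzd3 (0.33) and Fzd1 (0.25) also called. In myotubes 8 of 23 were higher and 2 lower, where 7.76% of genes were higher and 9.36% lower. By limma on the TPM scale the myotube split was 6 and 3, where all genes split into 698 and 1363. The higher members were Sfrp2 (1.68, SE 0.20, adjusted p = 0.000198), Sfrp4 (1.54, SE 0.20, adjusted p = 0.000362), Dkk2 (1.32, SE 0.19, adjusted p = 0.000616), Wnt11 (1.10), Fzd4 (0.69), Wnt4 (0.53), Wnt10b (0.32) and Fzd7 (0.22), and the lower ones Fzd5 (-0.44) and Fzd2 (-0.20). The median over the members was 0.22, against 0.0006 over all genes. Wnt7b did not pass between the siRNAs in either stage (-0.24 and 0.31, SE 0.12 and 0.16, adjusted p = 0.152 and 0.227), nor did Fzd9 in myotubes (0.05, SE 0.091).

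The myotube count of 10 between siRNAs became 6 without siRNA 1 replicate 2, 6 without siRNA 1 replicate 3 and 5 without siRNA 2 replicate 3. With same-prefix libraries summed it was 3, namely Sfrp2, Sfrp4 and Dkk2, the Wnt4 value then being 0.50 (adjusted p = 0.062). Fzd9 between siRNAs in myoblasts was lost without any 1 of siRNA 1 replicates 2 and 3 and siRNA 2 replicates 2 and 3 (adjusted p = 0.0741, 0.0743, 0.0933 and 0.0772).

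Whether depletion acted alike in both stages was tested as a difference, the average effect of the siRNAs in myotubes less that in myoblasts. Of 24 members 5 were higher by this difference and 2 lower, where 10.6% of 16930 genes were higher and 12.8% lower. Wnt7b had the largest difference, 1.68 (SE 0.17, adjusted p = 7.38e-07), with falls of 0.88 and 1.13 in myoblasts and values of 0.52 and 0.84 in myotubes. Fzd9 differed by 1.18 (SE 0.20, adjusted p = 0.000185). Its myoblast values were -0.08 and -0.92 and its myotube values 0.65 and 0.71. Sfrp2 differed by 1.17 (SE 0.32, adjusted p = 0.0103), a call lost without the first myoblast control (0.0577).

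By limma on the TPM scale 3 members were higher and 2 lower, where 1359 of all genes tested were higher and 1962 lower. The other stage differences were smaller. Fzd5 stood at 0.40 (adjusted p = 0.0315), Fzd7 at 0.20 (0.0457), Fzd6 at -0.25 (0.0115) and Fzd2 at -0.18 (0.0289). The Fzd6 call was lost without the first myotube control (0.0664). Those of Fzd5, Fzd7 and Fzd2 were lost without any 1 of 7, 11 and 8 of the 18 libraries, with adjusted p from 0.0524 to 0.0996, from 0.0508 to 0.118 and from 0.0518 to 0.124. Fzd1, which was below its controls in all 12 depleted libraries, gave a stage difference of -0.14 (SE 0.064, adjusted p = 0.132; -0.18 and 0.00539 with the prefix in the model), and Dkk2 one of 0.52 (SE 0.19, adjusted p = 0.0615). The count of 7 became 4, 3 and 4 without the second myoblast control, the first myotube control or the third myotube control. With same-prefix libraries summed it was 2, Wnt7b and Fzd9.

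**Figure D5:**
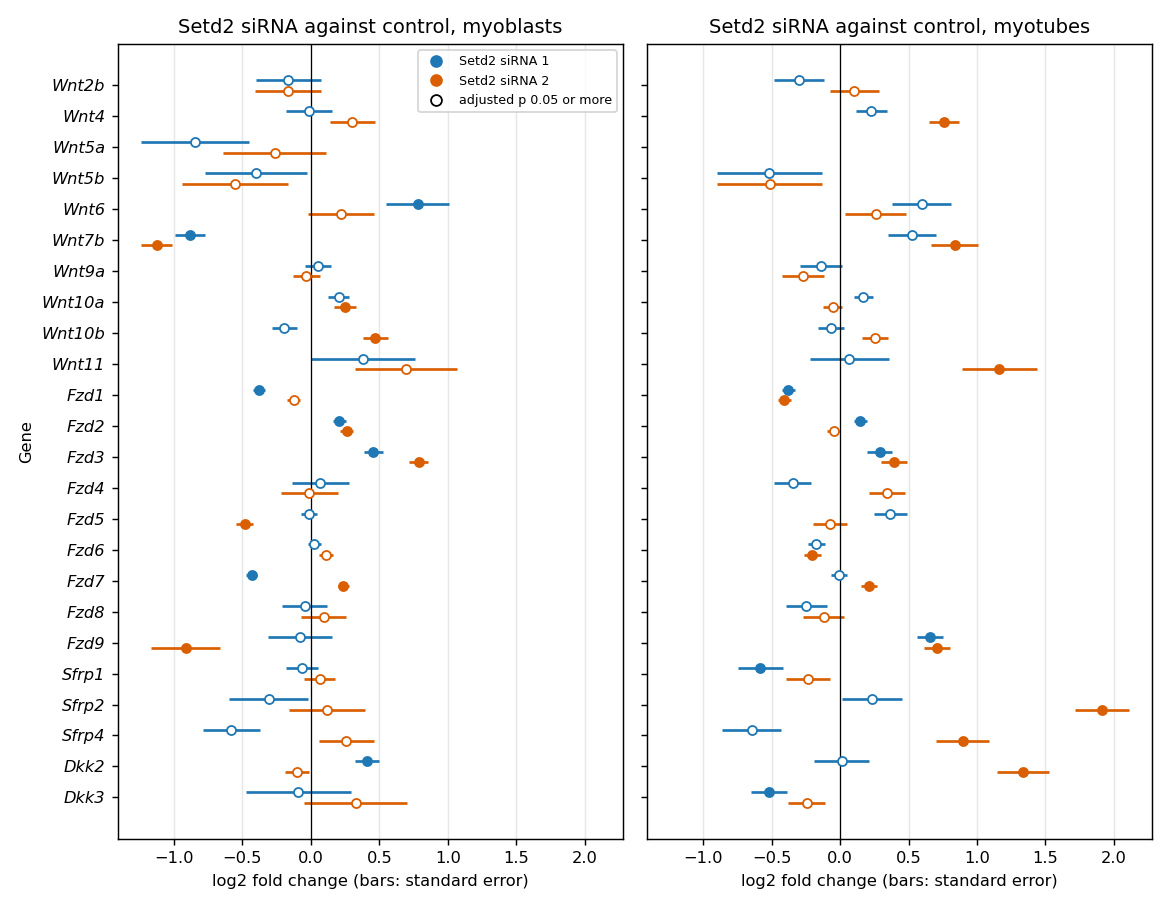
log2 fold change of each tested member with Setd2 siRNA 1 and siRNA 2 against control in myoblasts (left) and myotubes (right); bars are standard errors, filled points have an adjusted p under 0.05 by edgeR's quasi-likelihood test, and Wnt5a was not tested in myotubes. Wnt7b lies left of 0 in myoblasts and right of 0 in myotubes, and Sfrp2, Dkk2 and Wnt11 lie right of 1 with siRNA 2 in myotubes.

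Genes that act before and after the receptor were read beside the members. Their counts stand against shares of all genes that rose and fell of 39.4% and 38.1% on differentiation, 11.6% and 8.44% (siRNA 1) and 17.1% and 16.5% (siRNA 2) in myoblasts, and 11.0% and 9.57%, then 15.8% and 16.4%, in myotubes. No list was tested as a group. For secretion, Porcn, the acyltransferase that attaches the lipid to Wnt proteins, rose on differentiation from 3.27 ± 0.47 to 112.9 ± 5.20 CPM (log2 fold change 5.10, adjusted p = 1.1e-16), and Wls, which carries lipidated Wnts to the surface, rose by 0.19. Neither was called with either siRNA. Of 9 coreceptors and other receptors, 5 rose and 2 fell on differentiation, Ror1 (1.65), Lgr5 (1.41) and Lgr4 (0.49) changing most. In depleted myotubes 0 rose and 2 fell with siRNA 1 and 2 rose and 1 fell with siRNA 2. Lgr4, a receptor for R-spondins, fell with each (-0.26 and -0.24).

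Of 19 extracellular modulators outside the Sfrp and Dkk families, 8 were tested in myotubes, where 2 rose and 3 fell with siRNA 1 and 3 rose and 1 fell with siRNA 2. Rspo3, an R-spondin that strengthens Wnt signalling, is counted among the rises with each, from 0.165 ± 0.093 CPM to 0.610 ± 0.12 and 1.15 ± 0.19 CPM (1.89 and 2.80, adjusted p = 0.00238 and 5.5e-05). Its control myotube level was too low to pass the minimum, so it was tested through the depleted libraries and the filter favoured a rise. These Rspo3 calls are not read as support for a change. Apcdd1, a membrane inhibitor, rose (0.58 and 1.15) and Serpinf1 fell (-0.74 and -0.40) with each siRNA. In myoblasts 5 were tested, and 0 rose and 1 fell with siRNA 1 against 3 and 0 with siRNA 2. On differentiation 4 rose and 3 fell of 8, with Wif1 at 7.81, Kremen2 at 2.84 and Notum at -2.34. Only 5 passed the minimum in myoblasts, so for some of the 8 the filter favoured a rise. The split on differentiation is therefore not read as a result about this list. Znrf3, an E3 ligase that removes Frizzleds from the surface, rose in myotubes with each siRNA (0.17 and 0.24).

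In the cytoplasm, 16 relay and destruction complex genes were tested. With siRNA 1 and siRNA 2, 4 and 3 rose and 4 and 4 fell in myoblasts, and 3 and 3 rose and 1 and 3 fell in myotubes. Amer1, a membrane partner of Apc and Axin, rose with each siRNA in myoblasts (0.28 and 0.35) and in myotubes (0.20 and 0.27). In myoblasts the kinase gene Gsk3b (0.26 and 0.42) and Ctnnbip1, an inhibitor of beta-catenin (0.26 and 0.18), rose with each and Csnk1d fell with each (-0.09 and -0.14). In myotubes Dvl1 rose with each (0.10 and 0.11). On differentiation 8 rose and 5 fell of the 16, led by Btrc (0.88), Dvl3 (0.79) and Csnk1a1 (0.77).

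Of 14 nuclear factors, 3 rose and 3 fell with siRNA 1 and 1 rose and 3 fell with siRNA 2 in myotubes, Lef1 (-0.82 and -0.40) and Bcl9 (-0.26 and -0.30) falling and the corepressor gene Aes, also called Tle5 (0.29 and 0.35), rising with each. In myoblasts 0 rose and 3 fell, and 1 rose and 2 fell, with no gene called the same way by each. On differentiation 4 rose and 6 fell, with Tle4 at 2.07, Pygo1 at 1.55 and Tle2 at 1.36. Of 13 tested genes that beta-catenin often induces, 6 rose and 5 fell on differentiation. Fst (6.52) and Axin2 (2.53) rose and Ccnd1 (-3.56) fell.

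With depletion, those 13 gave 1 rise and 1 fall with siRNA 1 and 5 and 1 with siRNA 2 in myoblasts, and 3 and 3, then 5 and 3, in myotubes. Ccn4 rose with each siRNA in myoblasts (0.52 and 0.94) and fell with each in myotubes (-0.46 and -0.35), with a stage difference of -1.14 (adjusted p = 1.23e-06). In myotubes Myc (-0.54 and -0.32) and Lef1 fell, and Apcdd1 and Znrf3 rose with each. Axin2, often read as a general reporter of the pathway, was at 4.96 to 5.73 CPM in control myotubes, 4.82 to 5.79 CPM with siRNA 1 and 5.04 to 6.48 CPM with siRNA 2, overlapping ranges that were not called. Of 16 planar polarity and noncanonical genes, 4 rose and 5 fell with siRNA 1 and 4 and 4 with siRNA 2 in myoblasts, and 4 and 1, then 6 and 4, in myotubes. Nfatc3 rose with each siRNA in both stages (0.36 and 0.55, then 0.13 and 0.16). In myoblasts Vangl1 (0.26 and 0.29) and Scrib (0.19 and 0.10) rose and Rac1 (-0.10 and -0.10) and Prickle1 (-0.33 and -0.16) fell with each. In myotubes Camk2d rose (0.22 and 0.23) and Vangl2 fell (-0.45 and -0.23) with each. On differentiation 7 rose and 7 fell, with Celsr3 at 3.44, Celsr1 at -2.97 and Daam2 at 2.61.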

How the data were processed

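PolyA RNA-seq of 18 C2C12 libraries was used, with 3 per group; the labels call them biological replicates and name no culture, so p-values measure the spread between these libraries. The authors deposited estimated counts and TPM for 115088 transcripts in 1 table per stage; the sources used here do not name the quantifier, and the submitters' processing notes name mm10 and DESeq2 without a role. The TPM values were scaled within each library by the authors, and the deposited estimated counts were not scaled between libraries. Transcripts were matched to GENCODE M21 (888, holding 0.16% to 0.24% of counts, did not match), summed per gene and rounded. Genes kept by filterByExpr (minimum count 10) were tested with edgeR 4.0.16 in R 4.3.3 (TMM, robust quasi-likelihood F tests, Benjamini-Hochberg adjustment over all genes tested, threshold 0.05), each stage's 9 libraries in 1 fit, and all 18 for comparisons across stages. Standard errors come from the F statistic. The script was tested on simulated data. Alternatives were RLE scaling, no filter, DESeq2 1.42.0, a replicate block, the name prefix in the model, limma 3.58.1 on log2(TPM + 0.5), each library left out, for differentiation the control libraries alone and, chosen after seeing the data, same-prefix libraries summed.

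The members and gene lists were chosen with earlier results of these data known. Each member is accounted for; library values of the groups concerned are given for members of at least 1 CPM in a group that were called on differentiation, with each siRNA of a stage or between stages, and further members were added after their values were seen. Other Wnt genes are named where each siRNA of a stage called them the same way, or among the 3 largest changes of their list on differentiation; Axin2 and Wls were added after their values were seen. 1 gene that this rule names is not reported here. Fibroblast and macrophage markers were also read: they summed to 8.33 to 13.9 CPM and 0.714 to 2.19 CPM in a library, osteoblast markers, led by Runx2, to 34.6 to 101.9 CPM.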

Additional observations from a re-analysis of the deposited data

Results flagged for a closer look

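The effect of Setd2 depletion differed between myotubes and myoblasts for 7 members by the test of the difference itself (edgeR's quasi-likelihood test, mean of both siRNAs against control, myotubes minus myoblasts, log2). The values were 1.68 for Wnt7b (adjusted p = 7.38e-07), 1.18 for Fzd9 (0.000185), 1.17 for Sfrp2 (0.0103), 0.40 for Fzd5 (0.0315), 0.20 for Fzd7 (0.0457), -0.25 for Fzd6 (0.0115) and -0.18 for Fzd2 (0.0289). Of 24 members 5 were thus higher and 2 lower, where 10.6% of 16930 genes were higher and 12.8% lower. The count ran from 3 to 9 with 1 library left out, and only Wnt7b and Fzd9 were called with same-prefix libraries summed. In Wnt7b all 6 depleted myoblast libraries lay below the controls and all 6 depleted myotube libraries above them. In Fzd7 the mean of both siRNAs hides opposite changes in myoblasts, -0.43 with siRNA 1 and 0.24 with siRNA 2. It also joins unlike siRNA 1 and siRNA 2 values of Sfrp2 (0.23 and 1.91) and Fzd5 (0.37 and -0.08) in myotubes. The same holds for Fzd9 (-0.08 and -0.92) in myoblasts.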

How the results depend on the processing

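No called member fold change reversed in the alternatives run. Most covered 189 fold changes, but 165 with the prefix in the model and 24 with control libraries alone. Leaving out 1 library gave 1422 fold changes over all such fits, of which 92 lost and 25 gained a call. DESeq2 lost 3 calls and gained 4, RLE scaling lost 1 and gained 1, and the fit with no filter lost 5 and gained 4. With same-prefix libraries of a group summed, which leaves fewer samples, 25 member fold changes lost their call, and the members called were 4 (myoblasts, siRNA 1), 2 (myotubes, siRNA 1), 3 (myotubes, siRNA 2 against siRNA 1) and 2 (stage difference). All genes called were then 997, 2987 and 1813 in myoblasts (siRNA 1, siRNA 2 and between siRNAs), 1028, 2657 and 700 in myotubes and 1839 for the stage difference. With the prefix in the model, all genes called were 5029 (main count 3122) for siRNA 1 in myoblasts and 6263 (4103) between siRNAs there. That model lost no member call of the 165 and gained 14: in myoblasts Wnt10a, Wnt5a and Sfrp4 with siRNA 1, Fzd1 and Fzd6 with siRNA 2 and Fzd6 between siRNAs, in myotubes Fzd5, Fzd6 and Sfrp4 with siRNA 1, Fzd4 with siRNA 2 and Wnt10a between siRNAs, and the stage differences of Fzd1, Fzd3 and Wnt10a. For the other comparisons all genes called with that model are not given here, and calls over all genes grew where they are given. The 14 gains are therefore not read as particular to the members. Deviations of same-prefix libraries correlated at 0.034 to 0.303 in myoblasts and -0.028 to 0.142 in myotubes, and those of different prefixes at -0.374 to -0.054 and -0.2 to 0.007. Most same-numbered pairs also share a prefix. Same-numbered pairs of different prefix correlated at -0.151 and -0.095 in myoblasts and -0.101 and -0.054 in myotubes. Differently numbered pairs of the same prefix correlated at 0.034 to 0.242 and 0.039 to 0.137. In these pairs the sign went with the prefix and not with the number. Whether the numbers also pair libraries within a prefix was not tested. Deviations of same-numbered libraries correlated at -0.151 to 0.303 in myoblasts (over 0.1 in 6 of 9 pairs) and -0.101 to 0.142 in myotubes (2 of 9). Deviations of differently numbered libraries correlated at -0.374 to 0.242 (5 of 18) and -0.2 to 0.137 (3 of 18). A replicate block gave 11 members in place of 6 with siRNA 1 in myotubes and lost no call. The number of all genes called with that block is not given here, so the rise is not read as particular to the members. Leaving out 1 library gave 20 to 21 members for differentiation, 6 to 7, 6 to 9 and 7 to 9 in myoblasts (siRNA 1, siRNA 2, between siRNAs), 2 to 8, 9 to 12 and 5 to 11 in myotubes and 3 to 9 for the stage difference. All genes called were then 12699 to 12852, 1959 to 3200, 4215 to 4902, 3092 to 3941, 2042 to 3295, 3920 to 5373, 1762 to 3196 and 3279 to 4138. With limma on TPM, 12 member fold changes lost their call, and all genes split into rises and falls of 728 and 1907, 1613 and 2766, and 1653 and 1396 in myoblasts (1807 and 1315, 2658 and 2564, and 1880 and 2223 with edgeR) and 788 and 1771, 1288 and 3784, and 698 and 1363 in myotubes (1766 and 1540, 2545 and 2640, and 1249 and 1506). Wnt5a and Wnt5b had at most 28 counts in a library, which limits what could be detected.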
